A study of Mus musculus with 10 samples.

Results

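The genes described here are 10 members of the p53 pathway in mouse hippocampal CA3, namely the transcription factor gene Trp53, its inhibitor genes Mdm2 and Mdm4, the p21 gene Cdkn1a, and the target genes Ccng1, Phlda3, Bax, Trp53inp1, Sesn2 and Eda2r. They are 10 of the 18453 genes counted in each library, and all 10 passed the filter on low counts that left 14393 genes for testing. The genes were chosen by symbol with their CPM in Mef2c shRNA against scramble libraries already known, so these group differences are given as a description, and no test is used in support of them. The libraries form 2 groups. In the Mef2c shRNA group (n = 5 libraries) CA3 of C57BL/6J mice had received, on both sides and by stereotaxic injection, adeno-associated virus coding for a short hairpin RNA against the transcription factor Mef2c. In the scramble group (n = 5 libraries) the virus carried a scrambled hairpin, so both groups share the surgery, the virus and hairpin expression. Per the labels, the knockdown was aimed at pyramidal neurons of CA3, all libraries are from male mice (the injection protocol names either sex), and the RNA came from CA3 tissue and not from sorted cells, so that fewer cells of a type and less RNA per cell cannot be told apart. The labels give neither the age, the time after injection nor the promoter of the hairpin. They also do not say that each library is a different mouse, and the p-values therefore cover only the variation among libraries, which may be technical.

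The p53 protein is a transcription factor that is held at low levels by Mdm2, a ubiquitin ligase that is itself a p53 target, and by Mdm4, a relative of Mdm2 that binds p53 and blocks its activity. DNA damage and other stresses act through kinases such as Atm, Atr and Chek2 to free p53, which then switches on genes for cell cycle arrest, apoptosis, repair and metabolism. The best known of these is Cdkn1a, whose product p21 inhibits cyclin-dependent kinases. In the brain the pathway is known from neuronal death after injury, and p21 is also studied in post-mitotic neurons and in glia.

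Sequence around the annotated starts was examined because p53 binds a known element, made of a pair of 10-base half-sites that may be separated by up to 13 bases. The promoter table of RefSeq (GRCm38.p6) holds windows of 250 bases before to 50 bases after a start, and 11 of these windows belong to 9 of the members; Trp53inp1 is not in it. The p53 half-site consensus, searched without mismatches and equal to its own reverse complement so that a single pass covers both strands, occurred in 5 of the 11 windows, which belong to Cdkn1a, Mdm2, Ccng1, Bax and Trp53, against 8.36% of all 32851 windows. A pair of half-sites within the allowed spacing occurred in 24 of the 32851 windows (0.0731%), and 1 of the 24 is the window of the upstream start of Cdkn1a. The windows of the upstream and downstream starts of Cdkn1a, which lie 2790 bp apart, and those of Mdm2, Ccng1 and Trp53 are shown, with exact half-sites in capitals, because they belong to p21, to p53 itself and to those target genes with a half-site whose products act back on p53 or on Mdm2:
Cdkn1a, upstream start, chr17:29090729-29091028, plus strand: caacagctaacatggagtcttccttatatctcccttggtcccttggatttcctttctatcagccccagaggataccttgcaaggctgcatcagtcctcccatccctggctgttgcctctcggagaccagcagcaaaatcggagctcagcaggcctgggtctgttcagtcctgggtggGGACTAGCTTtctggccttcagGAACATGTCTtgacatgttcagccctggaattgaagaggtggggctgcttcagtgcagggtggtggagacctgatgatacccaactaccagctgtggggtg
Cdkn1a, downstream start, chr17:29093519-29093818, plus strand: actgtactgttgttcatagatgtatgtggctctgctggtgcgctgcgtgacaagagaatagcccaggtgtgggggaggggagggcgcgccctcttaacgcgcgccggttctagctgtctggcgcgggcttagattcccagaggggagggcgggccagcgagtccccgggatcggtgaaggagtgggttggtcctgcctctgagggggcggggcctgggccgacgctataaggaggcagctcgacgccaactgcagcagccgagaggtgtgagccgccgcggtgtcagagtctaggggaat
Mdm2, chr10:117710709-117711008, minus strand: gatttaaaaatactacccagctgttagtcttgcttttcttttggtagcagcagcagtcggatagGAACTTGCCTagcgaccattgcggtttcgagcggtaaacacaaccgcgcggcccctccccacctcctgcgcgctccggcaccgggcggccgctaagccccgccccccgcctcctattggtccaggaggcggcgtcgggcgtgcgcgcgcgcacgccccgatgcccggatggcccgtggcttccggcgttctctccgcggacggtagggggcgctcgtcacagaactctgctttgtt
Ccng1, chr11:40755237-40755536, minus strand: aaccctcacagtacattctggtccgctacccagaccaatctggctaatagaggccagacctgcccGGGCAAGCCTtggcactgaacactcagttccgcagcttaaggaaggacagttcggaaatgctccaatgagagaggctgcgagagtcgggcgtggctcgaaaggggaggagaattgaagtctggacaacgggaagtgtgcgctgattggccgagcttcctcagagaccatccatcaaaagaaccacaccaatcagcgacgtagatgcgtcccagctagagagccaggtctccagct
Trp53, chr11:69580109-69580408, plus strand: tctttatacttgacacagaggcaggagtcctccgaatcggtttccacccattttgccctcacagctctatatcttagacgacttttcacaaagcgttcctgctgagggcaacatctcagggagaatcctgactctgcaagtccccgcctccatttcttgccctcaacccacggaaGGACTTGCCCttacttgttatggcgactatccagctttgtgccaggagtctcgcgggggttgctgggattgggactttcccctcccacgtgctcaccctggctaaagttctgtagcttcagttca

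In the upstream Cdkn1a window the half-sites GGACTAGCTT and GAACATGTCT begin at -73 and -51 relative to the start and have 12 bases between them. The second of these also opens a 20-base run, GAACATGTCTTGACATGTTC, that matches a full element without spacer at all but 1 base. Ccng1 holds such a run as well, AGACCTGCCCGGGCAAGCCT from -195, also with 1 mismatch. Runs with 1 mismatch or none were found in 29 of all windows (0.0883%). The downstream Cdkn1a window, which has 23 CpG dinucleotides against 2 in the upstream one, holds no exact half-site. Mdm2 has the single half-site GAACTTGCCT at -186, Bax has AGGCAAGCTT at -201, and Trp53 has GGACTTGCCC at -75. No exact half-site was found in the windows of Phlda3, Sesn2, Eda2r and Mdm4. These matches describe letters in a window; binding was not measured, and counts per gene do not tell which start was used.

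Total counts lay between 15669620 and 17798090 in the Mef2c shRNA libraries and between 14701928 and 15637076 in the scramble libraries, every Mef2c shRNA library being deeper than every scramble library. At this depth the members' raw counts ranged from 3 to 34 reads for Eda2r and from 81 to 2063 for the other 9 genes. Levels are given as CPM, the usual reads-per-library-size unit, here with library sizes after TMM normalization. Mef2c, the targeted gene, stood at 111, 131, 121, 163 and 286 CPM in Mef2c shRNA libraries 1 to 5, against 166, 198, 176, 312 and 175 CPM in scramble libraries 1 to 5. Its log2 fold change was -0.34 (SE 0.30) and did not pass (edgeR quasi-likelihood test, Benjamini-Hochberg adjusted p = 0.489), and the library labelled Mef2c shRNA 5 lay above 4 of the 5 scramble libraries. That library and scramble 4 also had the highest summed level of the cortical neuron markers in their groups, at 323 CPM in the library labelled Mef2c shRNA 5, against 281 CPM in scramble 4, while the other libraries lay between 139 and 214 CPM in the Mef2c shRNA and between 162 and 185 CPM in the scramble group; the part of this in the Mef2c values was not tested. Without both of these libraries Mef2c fell by 0.45 on the log2 scale (SE 0.10) and passed (edgeR adjusted p = 0.0274). They held the highest Mef2c of their groups, so a fit that leaves them out cannot verify the knockdown. It was the only 1 of 25 alternatives in which Mef2c passed. When 1 library was left out Mef2c passed in 0 of 10 fits, with log2 fold changes between -0.64 and -0.14. With the microglia score as a covariate it stood at 0.18. Of the 5 CA3 markers Grik4, Iyd, Bok, Cdh24 and St18, none was at 0 in a library, and their summed level was 187 to 258 CPM in Mef2c shRNA libraries and 192 to 230.4 CPM in scramble libraries.

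Of the 10 members, 4 passed the threshold of an adjusted p under 0.05 in the edgeR fit over all genes. Cdkn1a, Phlda3 and Trp53 were the 3 on the higher side and Mdm4 the 1 on the lower side, beside 12.3% of all tested genes called in either direction, 4.66% called higher and 7.61% called lower. The groups did not overlap in 2 members, Cdkn1a (higher) and Mdm4 (lower), beside 9.34% of all tested genes, 3.3% higher and 6.04% lower. With per-library offsets for transcript length and GC content 2 members passed, Cdkn1a higher and Mdm4 lower, beside 1.65% of all tested genes, 0.695% higher and 0.959% lower. The median log2 fold change was 0.23 over the members and 0.02 over all tested genes. Since the choice of members used this contrast, nothing is read from these counts.

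**Figure D1:**
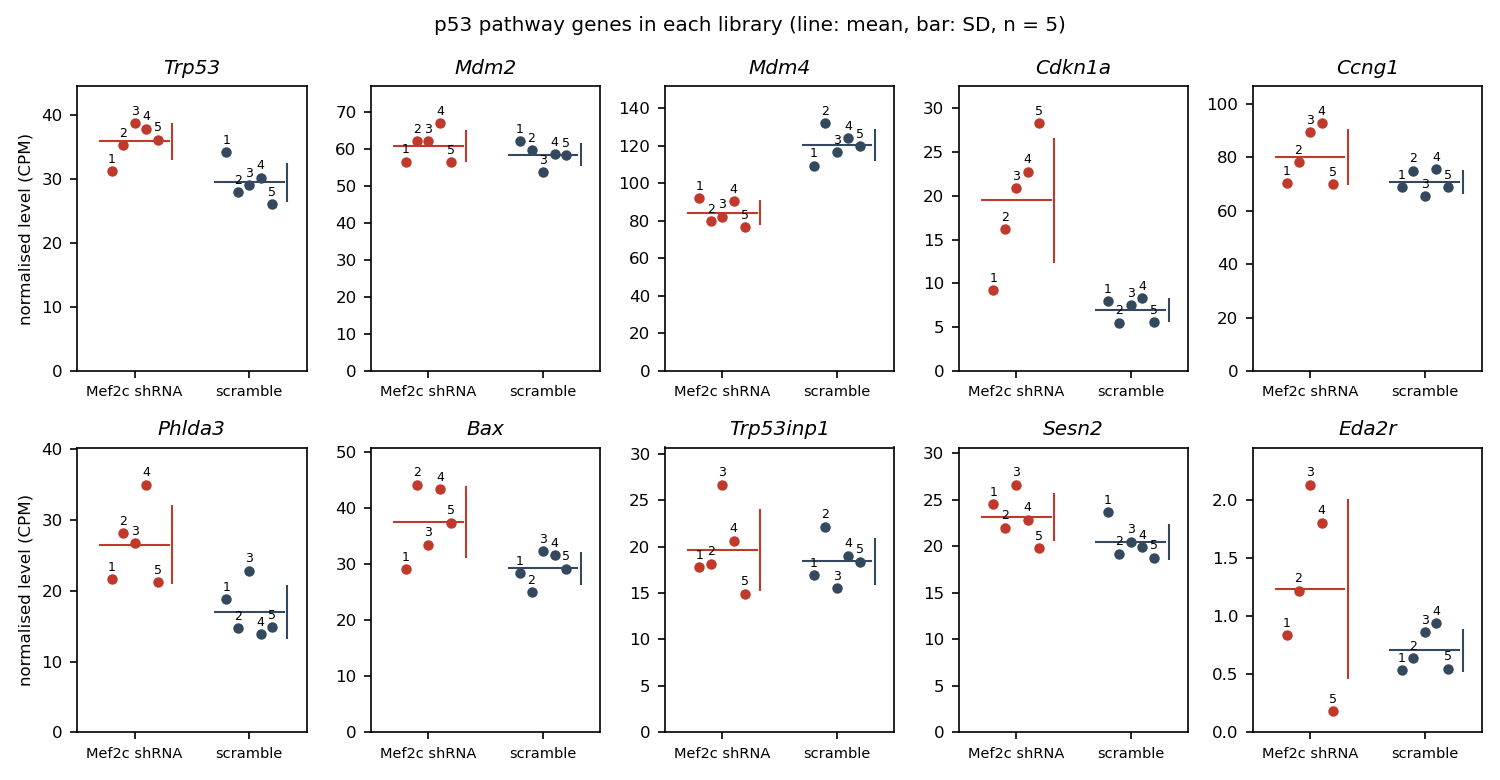
Normalised level in CPM (vertical axis, from 0, a scale of its own for each gene) of the 10 members in the 5 Mef2c shRNA libraries (left, red) and the 5 scramble libraries (right, dark blue). Points are libraries with their number, the horizontal line is the mean and the vertical bar the SD; the groups separate fully in Cdkn1a, at 9.25 to 28.3 against 5.50 to 8.31 CPM, and in Mdm4, at 76.6 to 92.0 against 109 to 132 CPM.

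Trp53 (ENSMUSG00000059552, chromosome 11, 69580359 to 69591873, plus strand, GRCm38) encodes p53 itself. It stood at 31.3, 35.4, 38.8, 37.9 and 36.2 CPM in Mef2c shRNA libraries 1 to 5, against 34.2, 27.9, 29.1, 30.2 and 26.1 CPM in scramble libraries 1 to 5. Mef2c shRNA 2 to 5 lay above all scramble libraries, and Mef2c shRNA 1 lay within the scramble range, below scramble 1. The means were 35.9 ± 2.92 CPM in Mef2c shRNA and 29.5 ± 3.04 CPM in scramble libraries (SD, n = 5 each), a log2 fold change of 0.28 (SE 0.09). That call was close to the threshold: of the 10 fits that left out 1 library it was kept only without Mef2c shRNA 1 and without scramble 1, with log2 fold changes between 0.24 and 0.34 over the 10.

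Mdm4 (ENSMUSG00000054387, chromosome 1, 132959484 to 133030561, minus strand), the inhibitor that masks p53, was the only member with a negative log2 fold change. Its level was 92.0, 79.9, 82.2, 90.4 and 76.6 CPM in Mef2c shRNA libraries 1 to 5, against 109, 132, 117, 124 and 119.6 CPM in scramble libraries 1 to 5. Every Mef2c shRNA library was below every scramble library. The means were 84.2 ± 6.73 CPM in Mef2c shRNA and 120.3 ± 8.42 CPM in scramble libraries (SD, n = 5 each), and the log2 fold change was -0.51 (SE 0.07). Transcripts of at least 7 kb, to which Mdm4 belongs with 7.105 kb, were called lower in 44.5% of 1404 genes and had a median log2 fold change of -0.30. With the length and GC offsets Mdm4 stood at -0.27 (SE 0.05) and passed.

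Mdm2 (ENSMUSG00000020184, chromosome 10, 117688875 to 117710758, minus strand), the ubiquitin ligase in the negative feedback loop of p53, had nearly the same level in both groups. It stood at 56.5, 62.1, 62.0, 66.9 and 56.5 CPM in Mef2c shRNA libraries 1 to 5, against 62.1, 59.6, 53.8, 58.6 and 58.2 CPM in scramble libraries 1 to 5. The ranges overlapped in all but Mef2c shRNA 4, and the log2 fold change was 0.06 (SE 0.07). Mdm2 and Mdm4 therefore had log2 fold changes of different size in the same libraries, with means of 60.8 ± 4.41 and 84.2 ± 6.73 CPM in Mef2c shRNA and of 58.4 ± 3.02 and 120.3 ± 8.42 CPM in scramble libraries (SD, n = 5 each).

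Cdkn1a (ENSMUSG00000023067, chromosome 17, 29090976 to 29100727, plus strand) encodes p21, the main effector of p53-dependent cell cycle arrest, and had the largest log2 fold change of the 10 members. Its level was 9.25, 16.2, 20.9, 22.8 and 28.3 CPM in Mef2c shRNA libraries 1 to 5, against 7.94, 5.50, 7.49, 8.31 and 5.57 CPM in scramble libraries 1 to 5. All Mef2c shRNA libraries were above all scramble libraries, Mef2c shRNA 1 by the smallest margin and the library labelled Mef2c shRNA 5 by the largest. The means were 19.5 ± 7.18 CPM in Mef2c shRNA and 6.96 ± 1.33 CPM in scramble libraries (SD, n = 5 each), which is a 2.80-fold level and a log2 fold change of 1.49 (SE 0.26), above 99.3% of all tested genes. The coefficient of variation was 36.9% in the Mef2c shRNA and 19.2% in the scramble group. With the length and GC offsets the log2 fold change was 1.32 (SE 0.25) and passed. Its exons share 273 bases with those of AC167363.2 on the opposite strand, whose reads cannot be told apart from its own unless counting used strand. Within the Mef2c shRNA group, library 1 was lowest both in Cdkn1a and in Mef2c (111 CPM). The library labelled Mef2c shRNA 5 was highest in both, with Mef2c at 286 CPM. A relation of Cdkn1a to the Mef2c level was not tested.

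Ccng1 (ENSMUSG00000020326, chromosome 11, 40748552 to 40755311, minus strand), a p53 target whose product cyclin G1 acts back on Mdm2, stood at 70.4, 78.1, 89.5, 92.9 and 70.0 CPM in Mef2c shRNA libraries 1 to 5. In scramble libraries 1 to 5 it stood at 68.9, 75.1, 65.5, 75.6 and 68.8 CPM. Mef2c shRNA libraries 2, 3 and 4 were above all scramble libraries, and numbers 1 and 5 lay inside the scramble range. The means were 80.2 ± 10.6 CPM in Mef2c shRNA and 70.8 ± 4.37 CPM in scramble libraries (SD, n = 5 each; log2 fold change 0.18, SE 0.09), which did not pass.

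Phlda3 (ENSMUSG00000041801, chromosome 1, 135766119 to 135769136, plus strand) is a p53 target whose product restrains Akt signalling at the membrane. It stood at 21.6, 28.1, 26.7, 35.01 and 21.2 CPM in Mef2c shRNA libraries 1 to 5, against 18.8, 14.7, 22.9, 13.9 and 14.8 CPM in scramble libraries 1 to 5. The groups overlapped only through scramble 3, which lay above Mef2c shRNA 1 and 5. The means were 26.5 ± 5.63 CPM in Mef2c shRNA and 17.0 ± 3.79 CPM in scramble libraries (SD, n = 5 each), a log2 fold change of 0.64 (SE 0.17). With the length and GC offsets it was 0.39 (SE 0.17) and no longer passed. Of the fits that left out 1 library, with values between 0.52 and 0.77, the call was kept without Mef2c shRNA 1 or 5 and without scramble 1 or 3, and lost without any of the other 6.

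Bax (ENSMUSG00000003873, chromosome 7, 45461697 to 45466898, minus strand), the pore-forming executioner of mitochondrial apoptosis, stood at 29.2, 44.2, 33.5, 43.5 and 37.4 CPM in Mef2c shRNA libraries 1 to 5. In scramble libraries 1 to 5 it stood at 28.4, 25, 32.4, 31.7 and 29.2 CPM. Mef2c shRNA 2 to 5 were above all scramble libraries, with Mef2c shRNA 1 inside their range. The log2 fold change was 0.36 (SE 0.11), short of the threshold, and with the length and GC offsets it was 0.06 (SE 0.10). Exons of Bax share 192 bases with those of Gm45808 on the same strand, which is not analysed here.

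Eda2r, Trp53inp1 and Sesn2 did not pass. Eda2r (chromosome X, 97333840 to 97377216), a p53-induced receptor of the tumour necrosis factor receptor family, stood at 0.835, 1.22, 2.13, 1.81 and 0.181 CPM in Mef2c shRNA libraries 1 to 5, against 0.538, 0.639, 0.862, 0.938 and 0.550 CPM in scramble libraries 1 to 5. Mef2c shRNA 2, 3 and 4 were above all scramble libraries, and the library labelled Mef2c shRNA 5, with 3 reads, was below all of them, so that the log2 fold change of 0.80 had an SE of 0.47; it was 1.08 (SE 0.34) and passed without that library, and was 0.52 (SE 0.48) without Mef2c shRNA 3. Trp53inp1 (chromosome 4, 11156431 to 11174379), whose product promotes p53 phosphorylation and autophagy, ranged from 14.9 to 26.7 CPM in Mef2c shRNA and from 15.5 to 22.1 CPM in scramble libraries (log2 fold change 0.09, SE 0.14, and -0.05 without Mef2c shRNA 3). Sesn2 (chromosome 4, 132492032 to 132510501), a stress-induced inhibitor of mTORC1 signalling, ranged from 19.8 to 26.6 CPM in Mef2c shRNA and from 18.8 to 23.7 CPM in scramble libraries (log2 fold change 0.18, SE 0.10).

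**Figure D2:**
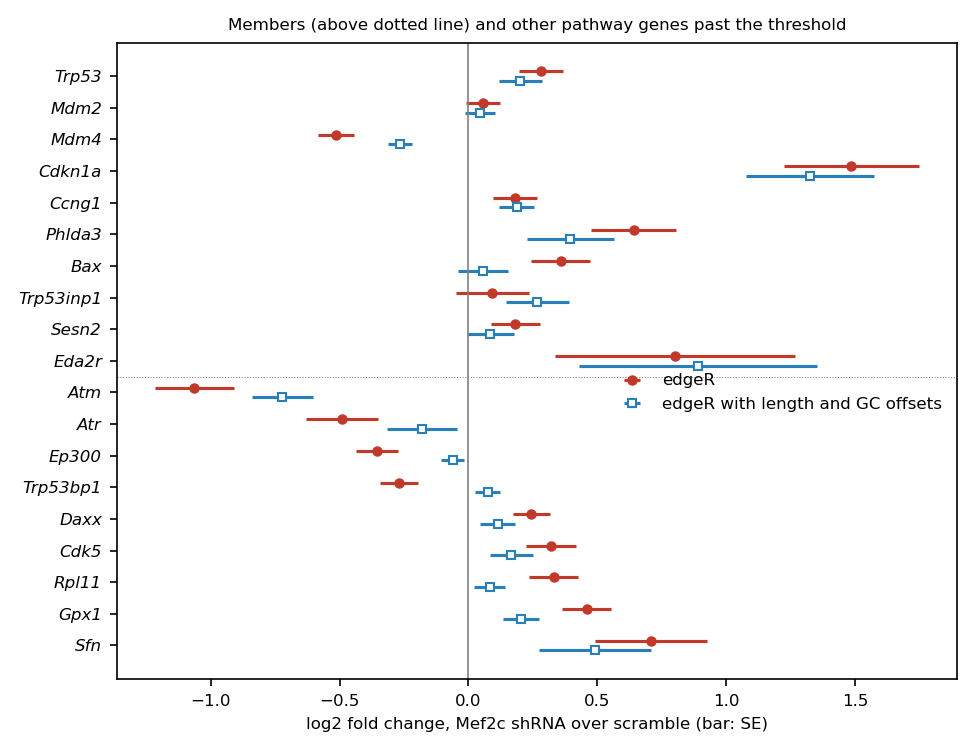
Log2 fold change of Mef2c shRNA over scramble (horizontal axis, bars are SE) for the 10 members, above the dotted line, and for the other pathway genes past the threshold, below it. Filled red circles are the edgeR fit and open blue squares the fit with per-library offsets for transcript length and GC content: Cdkn1a lies at 1.49 and 1.32, Mdm4 at -0.51 and -0.27, and Atm at -1.06 and -0.72.

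Levels of different genes can be compared only per length, here CPM per kb of the longest annotated transcript. In Mef2c shRNA libraries Bax had the highest mean level per kb (34.1 ± 5.87), followed by Ccng1 (22.8 ± 3.03), Mdm2 (19.3 ± 1.40), Phlda3 (18.5 ± 3.93), Mdm4 (11.9 ± 0.947), Trp53 (11.0 ± 0.891), Cdkn1a (9.37 ± 3.45), Sesn2 (6.66 ± 0.740), Trp53inp1 (3.61 ± 0.814) and Eda2r (0.260 ± 0.163; SD, n = 5 each). In scramble libraries the order was Bax (26.7 ± 2.67), Ccng1 (20.2 ± 1.24), Mdm2 (18.6 ± 0.959), Mdm4 (16.9 ± 1.18), Phlda3 (11.9 ± 2.64), Trp53 (9.02 ± 0.927), Sesn2 (5.87 ± 0.559), Trp53inp1 (3.39 ± 0.457), Cdkn1a (3.35 ± 0.642) and Eda2r (0.148 ± 0.0387; SD, n = 5 each). Cdkn1a thus ranked 7th in the Mef2c shRNA and 9th in the scramble libraries. Neighbours whose means lay closer than the sum of their SDs were Ccng1 and Mdm2, Mdm2 and Phlda3, Mdm4 and Trp53, Trp53 and Cdkn1a, and Cdkn1a and Sesn2 in Mef2c shRNA libraries. In scramble libraries they were Ccng1 and Mdm2, Mdm2 and Mdm4, Phlda3 and Trp53, and Trp53inp1 and Cdkn1a.

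The spread of Cdkn1a within the groups was not used in choosing the members, and was compared with that of the other 9. Deviations of log2 CPM from the group mean were correlated over the 10 libraries, with an exact two-sided test over the 14400 permutations within groups and Benjamini-Hochberg adjustment over the 9 relations. The closest relation was with Trp53 (Pearson r = 0.740, permutation p = 0.0108, adjusted p = 0.0975; Spearman rho = 0.770, permutation p = 0.0171, adjusted p = 0.154), which did not pass after adjustment. Without Mef2c shRNA 1 and scramble 2, the libraries farthest from the median of Cdkn1a, r was 0.522 (exact permutation p = 0.191). It was 0.569 without Mef2c shRNA 1 alone and 0.725 without scramble 2 alone, so the relation rests in part on Mef2c shRNA 1. Without the library labelled Mef2c shRNA 5 it was 0.841 and passed (exact permutation adjusted p = 0.0375). Next came Bax (r = 0.576, rho = 0.491; exact permutation adjusted p = 0.506 and 0.645) and Mdm4 (r = -0.565, rho = -0.467; exact permutation adjusted p = 0.506 and 0.645), and neither kept its size without the same pair of libraries (r = -0.193 and -0.128). Without Mef2c shRNA 1 alone r was 0.103 for Bax and -0.341 for Mdm4, and without scramble 2 alone it was 0.533 and -0.521. For the other 6 members r lay between -0.141 for Sesn2 and 0.281 for Phlda3, and none passed. That range moved in either direction with the library left out. Without the library labelled Mef2c shRNA 5, r was 0.829 for Eda2r, 0.711 for Ccng1, 0.619 for Phlda3 and 0.597 for Mdm2. None of these passed (exact permutation adjusted p between 0.122 and 0.252). Without Mef2c shRNA 1, r was -0.336 for Eda2r, -0.213 for Ccng1, -0.007 for Phlda3, -0.259 for Mdm2 and -0.428 for Trp53inp1. None of these passed either (exact permutation adjusted p between 0.906 and 0.989).

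Among 12742 named genes above a mean of 2 CPM, the 5 whose within-group deviations were most like those of Cdkn1a were Lad1 (r = 0.967), Rchy1 (r = 0.943), Sf3b4 (r = 0.938), Pianp (r = 0.935) and Oaf (r = 0.932), over 10 libraries and picked for these values, so no p is given. Rchy1 encodes Pirh2, a p53-induced ubiquitin ligase that acts on p53, and it was also one of the pathway genes listed for this work. It stood at 37.2, 39.8, 42.0, 44.3 and 47.4 CPM in Mef2c shRNA libraries 1 to 5, against 37.1, 35.1, 36.0, 38.8 and 35.1 CPM in scramble libraries 1 to 5. Mef2c shRNA 2 to 5 lay above all scramble libraries. The library labelled Mef2c shRNA 5 was highest, as for Cdkn1a, a likeness that the choice by within-group deviations brings with it. At a log2 fold change of 0.21 (SE 0.07) Rchy1 did not pass (edgeR adjusted p = 0.0758). Nor did it with the length and GC offsets (0.13, SE 0.07, edgeR adjusted p = 0.333).

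The wider pathway was read from 10 lists of genes taken for their textbook roles, 111 genes beside the members, drawn up with earlier results of these data known. Of these, 109 had a row in the tables and 104 were tested: 5 rose (Sfn, Gpx1, Daxx, Rpl11 and Cdk5), 4 fell (Atm, Atr, Ep300 and Trp53bp1) and 95 did not pass, beside the 12.3% of all tested genes given above. Their median log2 fold change was 0.10. With the length and GC offsets 2 passed, Atm among the lower and Cop1 among the higher. With the replicate number as a block 3 of the 104 passed, 1 higher and 2 lower. When 1 library was left out, Atm, Gpx1 and Ep300 passed in all 10 fits. Sfn passed only without Mef2c shRNA 1 or 3, Atr and Trp53bp1 only without Mef2c shRNA 1 or 5, and Cdk5 only without Mef2c shRNA 1, 3 or 5 or scramble 3. Daxx passed only without Mef2c shRNA 1 or 5, and Rpl11 only without Mef2c shRNA 1 or 3 or scramble 3.

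Of 39 tested p53 target genes outside the members, 2 rose, 0 fell and 37 did not pass; 10 had an unadjusted edgeR p under 0.05, which 30.1% of all tested genes had and against which all such counts below are to be read, and over all 104 genes limma-voom called 22, against 9 with edgeR. The median of these 39 log2 fold changes was 0.13. All 9 tested arrest targets had positive log2 fold changes with a median of 0.63, while the medians were 0.13 for apoptosis, -0.13 for repair, 0.17 for metabolic and 0.11 for feedback targets. With the length and GC offsets Plk3 (-0.09) and Plk2 (-0.02) of the arrest targets turned negative, and the median of the metabolic targets was 0.03. Of the arrest targets 1 passed, and 2 had an unadjusted edgeR p under 0.05. Sfn, the 14-3-3 sigma gene, rose to 2.77 ± 0.544 CPM in Mef2c shRNA, against 1.69 ± 0.309 CPM in scramble libraries (SD, n = 5 each; log2 fold change 0.71, SE 0.22, edgeR adjusted p = 0.0468). Among 7 metabolic targets, Gpx1, a glutathione peroxidase, rose to 43.8 ± 6.35 CPM in Mef2c shRNA, against 31.9 ± 1.68 CPM in scramble libraries (SD, n = 5 each; log2 fold change 0.46, SE 0.09, edgeR adjusted p = 0.00967). Its groups did not overlap, at 34.9 to 50.7 CPM in Mef2c shRNA and 30.0 to 34.3 CPM in scramble libraries. With the length and GC offsets neither passed (Sfn 0.49, SE 0.22; Gpx1 0.20, SE 0.07).

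None of 12 apoptosis targets passed (2 at an unadjusted edgeR p under 0.05), and none of 8 repair targets (1 such) or 3 feedback targets (1 such). The apoptosis targets with the highest levels were Zmat3, an RNA-binding p53 target (log2 fold change -0.16, SE 0.06, and 0.13 with the length and GC offsets), and Ei24 (0.09, SE 0.06). Among the repair targets these were Rrm2b, the p53-inducible ribonucleotide reductase subunit (-0.14, SE 0.10), and Pcna, the sliding clamp that p21 also binds (0.14, SE 0.10). Cop1, a p53 ubiquitin ligase, had a log2 fold change of 0.10 (SE 0.08), and of 0.39 (SE 0.08, edgeR adjusted p = 0.0306) with the length and GC offsets.

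Of 20 tested regulators of p53, 2 rose, 4 fell and 14 did not pass. Atm, the kinase that relays DNA double-strand breaks to p53, had the largest change of the 9 called pathway genes. Its level was 17.8, 13.2, 12.98, 12.2 and 8.15 CPM in Mef2c shRNA libraries 1 to 5, against 26.2, 30.6, 25.8, 26.2 and 25.7 CPM in scramble libraries 1 to 5. All Mef2c shRNA libraries were below all scramble libraries, the library labelled Mef2c shRNA 5 lowest. Atm fell by 1.06 on the log2 scale (SE 0.15, edgeR adjusted p = 0.00158), and with the length and GC offsets, its longest transcript being 9.819 kb, it still passed at -0.72 (SE 0.12, edgeR adjusted p = 0.0138).

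The related kinase gene Atr fell to 11.2 ± 1.94 CPM in Mef2c shRNA, against 15.7 ± 2.57 CPM in scramble libraries (SD, n = 5 each; log2 fold change -0.49, SE 0.14, edgeR adjusted p = 0.038). Ep300, a histone acetyltransferase and p53 coactivator (-0.36, SE 0.08), and Trp53bp1, the repair factor 53BP1 (-0.27, SE 0.07), fell as well. These 3 genes have transcripts of 8.102, 9.566 and 9.621 kb, and with the length and GC offsets none of them passed (-0.18, -0.06 and 0.07, the last with its direction turned). Rpl11, a ribosomal protein that binds Mdm2 and has processed pseudogenes that could take some of its reads (0.33, SE 0.10), and Daxx, a chaperone that interacts with Mdm2 (0.24, SE 0.07), rose, and with the same offsets they stood at 0.08 and 0.11 and did not pass. Hipk2, a kinase that phosphorylates p53, was named after its values were seen: it stood at 78.7, 25.8, 41.8, 31.9 and 19.1 CPM in Mef2c shRNA libraries 1 to 5, against 85.5, 90.8, 93.9, 87.3 and 94.3 CPM in scramble libraries 1 to 5. The groups did not overlap, but with Mef2c shRNA 1 close to the scramble range the log2 fold change of -1.20 had an SE of 0.34 and did not pass (edgeR adjusted p = 0.0546). With the length and GC offsets Hipk2, of 7.684 kb, stood at -1.04 (SE 0.28) and did not pass (edgeR adjusted p = 0.109). Without Mef2c shRNA 1 it was -1.61 (SE 0.19) and passed (edgeR adjusted p = 0.000583). That was the only 1 of the 10 fits leaving out 1 library in which it passed, and 3305 genes passed there.

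**Figure D3:**
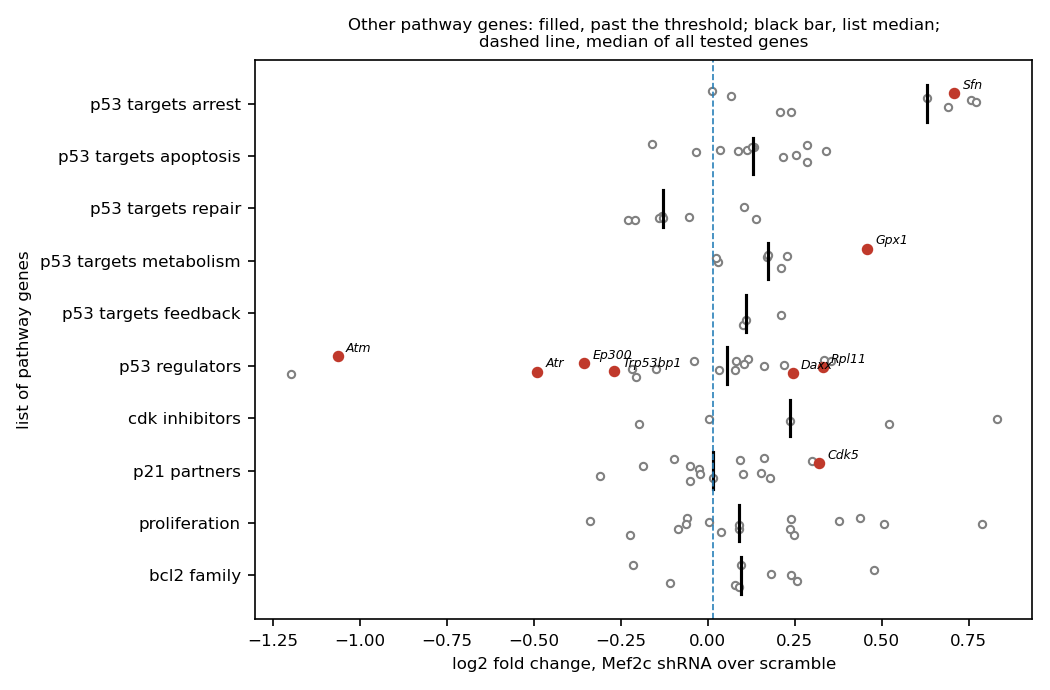
Log2 fold change of Mef2c shRNA over scramble (horizontal axis) for each tested gene of the 10 pathway lists (rows). Filled red points passed the edgeR threshold, open points did not, black bars are list medians and the dashed blue line is the median of all tested genes, 0.02; Atm at -1.06 lies farthest left of the called genes, and the left-most open point among the regulators is Hipk2 at -1.20.

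On the side of p21 itself, none of the 5 tested relatives among the cyclin-dependent kinase inhibitors passed, and 3 had an unadjusted edgeR p under 0.05. Cdkn1b, the p27 gene, stood at 48.5 ± 4.94 CPM in Mef2c shRNA and 48.5 ± 3.84 CPM in scramble libraries (SD, n = 5 each; log2 fold change 0.00, SE 0.08), and Cdkn2d had a log2 fold change of 0.24 (SE 0.07, edgeR adjusted p = 0.0525). Cdkn2d stood at 0.03 (SE 0.07) with the length and GC offsets. Cdkn2a, the gene of p16 and of the Mdm2 inhibitor Arf, had 9 reads in all 10 libraries together and was not tested. A list of 15 genes held kinases, cyclins, pocket proteins and E2F transcription factors on which p21 acts directly or indirectly. Of these, Cdk5, a kinase of post-mitotic neurons, rose (log2 fold change 0.32, SE 0.10, edgeR adjusted p = 0.0454) and 14 did not pass. With the length and GC offsets Cdk5 stood at 0.17 (SE 0.08, edgeR adjusted p = 0.322) and did not pass. None of 16 tested proliferation genes passed, 3 of them at an unadjusted edgeR p under 0.05; Mcm6 (0.24, SE 0.16) and Mcm7 (0.25, SE 0.10), helicase subunits of DNA replication, had the highest levels. Ccnb1, Aurkb and Bub1, genes of mitosis, were too low to test, with 113, 80 and 47 reads over the 10 libraries. None of 9 tested relatives of Bax passed (4 at an unadjusted edgeR p under 0.05), with the survival genes Bcl2l1 at 0.18 (SE 0.06) and Bcl2l2 at 0.08 (SE 0.06). Bcl2l1 and Bcl2l2 stood at 0.05 (SE 0.05) and 0.04 (SE 0.06) with the length and GC offsets.

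Markers of other cells were counted in the same fit. Of the 12 microglia markers, all with positive log2 fold changes, 6 passed, beside the 4.66% of all tested genes called higher, and none did with the length and GC offsets; their summed level was 436 to 916 CPM in Mef2c shRNA and 356 to 521 CPM in scramble libraries, with none at 0 in a library. Of the 12 interferon-stimulated genes, all with positive log2 fold changes, 1 passed, Rtp4, and none with the offsets, with sums of 38.1 to 453 CPM in Mef2c shRNA and 33.6 to 161 CPM in scramble libraries, and 1 of the genes was at 0 in at least 1 library. The interferon sums were 140.3, 453, 367, 412 and 38.1 CPM in Mef2c shRNA libraries 1 to 5, so the library labelled Mef2c shRNA 5, which had the highest Cdkn1a, lay in the range of the scramble libraries for these genes. With the interferon score as a covariate Cdkn1a (1.63, SE 0.30) and Mdm4 (-0.56, SE 0.08) passed, Phlda3 (0.40, SE 0.15) and Trp53 (0.28, SE 0.11) did not, and Eda2r (-0.23, SE 0.48) and Trp53inp1 (-0.08, SE 0.16) turned sign. That score is itself higher in the Mef2c shRNA group (0.82 against -0.82 on average). As the members were chosen on this contrast, nothing is read from these calls. The part of the interferon-stimulated genes in the members' values was not tested.

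The 8 lymphocyte markers were at low counts, and of the 3 high enough to test 0 passed (2 at an unadjusted edgeR p under 0.05), although their median log2 fold change of 1.88 was above that of the interferon (1.77) and microglia (0.75) lists. Their sums were 2.78 to 20.3 CPM in Mef2c shRNA and 1.01 to 8.55 CPM in scramble libraries, and 4 were at 0 in at least 1 library. Of 6 astrocyte markers 1 passed (Aldh1l1, higher), with sums of 2210 to 3201 CPM in Mef2c shRNA and 1955 to 2389 CPM in scramble libraries. Of 8 endothelial markers 2 passed (Cldn5 and Ly6c1, higher), with sums of 250.4 to 302 CPM in Mef2c shRNA and 241 to 269.7 CPM in scramble libraries. Only 4 of the 8 had positive log2 fold changes, the list median was -0.003, and none passed with the length and GC offsets. None of the oligodendrocyte, choroid plexus, dentate granule, CA1, CA3 or cortical neuron markers passed. Of the 5 precursor markers Pdgfra passed (lower), while 3 had positive log2 fold changes and the list median was 0.22. With the length and GC offsets Pdgfra stood at -0.09 and did not pass. Of the 6 general neuron markers Map2 passed (lower), while 4 had positive log2 fold changes and the list median was 0.07. With the offsets Map2 stood at -0.35 and passed. With the endothelial score as a covariate Phlda3 (0.62, SE 0.19) and Trp53 (0.28, SE 0.10) did not pass. The part of these cells in the values of the p53 genes was not tested.

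**Figure D4:**
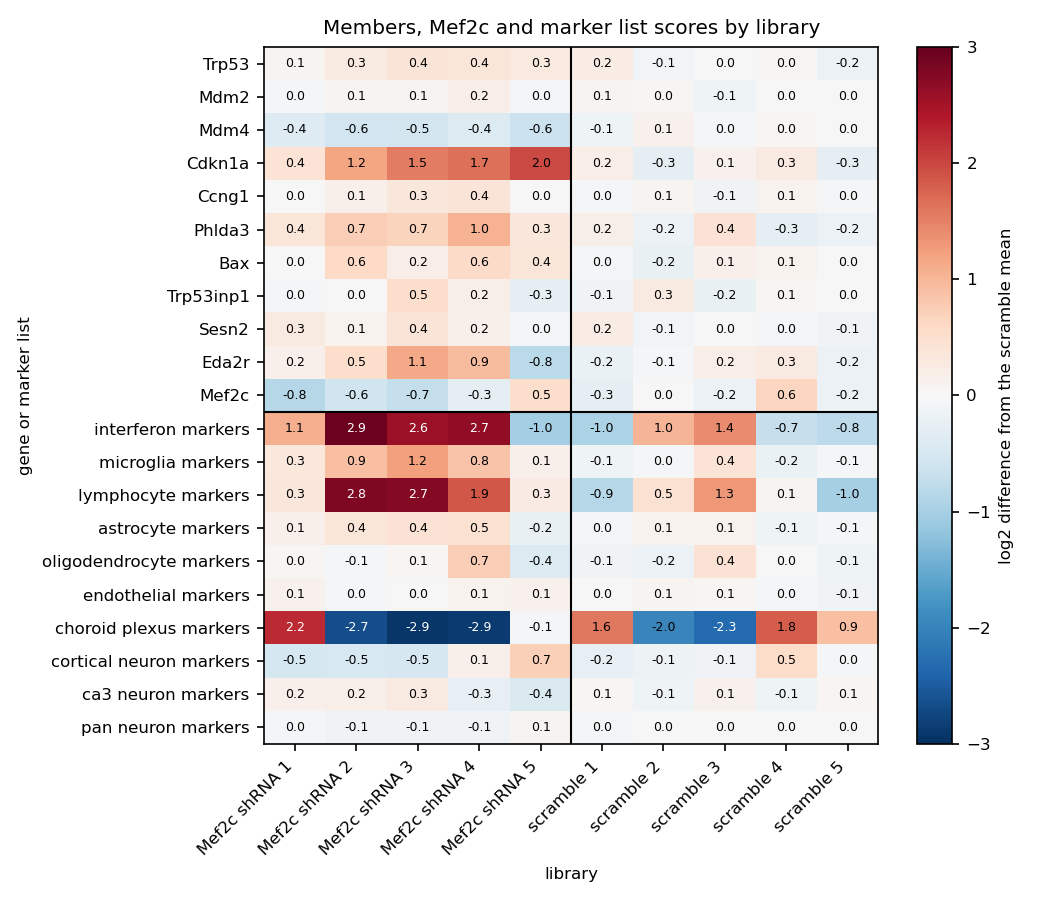
Difference from the mean of the scramble libraries (colour and number, log2 units) of the members and Mef2c, as log2 of CPM plus 0.5 (upper rows), and of marker list scores, the mean log2 CPM of a list's genes (lower rows), in each library (columns, Mef2c shRNA left, scramble right). Cdkn1a is above the scramble mean in all 5 Mef2c shRNA libraries, while the interferon row is high in numbers 2, 3 and 4 and low in number 5.

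Choroid plexus markers split the libraries across both groups. Their sum was 658 to 2672 CPM in Mef2c shRNA 1 and 5 and scramble 1, 4 and 5, and 45.6 to 92.6 CPM in Mef2c shRNA 2, 3 and 4 and scramble 2 and 3. These sets were seen in the data and are not given by the labels. The log2 difference was 1.16 in the first set and 1.60 in the second for Cdkn1a, and -0.48 and -0.56 for Mdm4, whose order within the sets is fixed by the lack of overlap over all 10 libraries. For Phlda3 it was 0.44 and 0.69, with levels of 21.2 to 21.6 against 13.9 to 18.8 CPM in the first and 26.7 to 35.01 against 14.7 to 22.9 CPM in the second. Mdm2 was lower in every Mef2c shRNA library of the first set (56.5 against 58.2 to 62.1 CPM) and higher in every one of the second (62.0 to 66.9 against 53.8 to 59.6 CPM). The other 6 members overlapped in the first set, while in the second Ccng1, Bax, Sesn2, Trp53 and Eda2r were higher in every Mef2c shRNA than in every scramble library and Trp53inp1 overlapped. Ccng1, Trp53inp1 and Eda2r had differences of opposite sign in the sets, such as -0.52 and 1.05 in log2 units for Eda2r. These orders come from the contrast on which the members were chosen, and nothing is read from them. With the split as a term Cdkn1a (1.49, SE 0.28), Phlda3 (0.56, SE 0.14) and Mdm4 (-0.52, SE 0.07) passed and Trp53 (0.27, SE 0.09) did not. As with the orders, nothing is read from these calls.

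Without Mef2c shRNA libraries 2, 3 and 4, no gene passed edgeR, 2590 genes having an unadjusted p under 0.05. The Mef2c shRNA libraries left, 1 and 5, held the group's lowest and highest Cdkn1a (9.25 and 28.3 CPM). In Mdm4 (92.0 and 76.6 CPM) and Atm (17.8 and 8.15 CPM) they were the highest and lowest. A fit to such extremes averages over them and cannot show that libraries 2, 3 and 4 play no part. The log2 fold change was then 1.43 (SE 0.36) for Cdkn1a, -0.52 (SE 0.10) for Mdm4 and -1.06 (SE 0.25) for Atm, all close to the values with every library. That of Phlda3 was 0.33 (SE 0.18), that of Trp53 0.19 (SE 0.12) and that of Eda2r -0.49 (SE 0.58), the sign of the last being turned, as it was for Mdm2 (-0.05), Ccng1 (-0.02) and Trp53inp1 (-0.18). With the microglia score as a covariate, which is itself higher in the Mef2c shRNA group (0.34 against -0.34 on average), no gene passed either, and Cdkn1a stood at 1.51 (SE 0.38), Mdm4 at -0.51 (SE 0.11), Phlda3 at 0.23 (SE 0.18) and Trp53 at 0.21 (SE 0.13). Eda2r (-0.67, SE 0.57) and Trp53inp1 (-0.21, SE 0.19) again turned sign there, and Mdm2 lay at -0.000617 (SE 0.10).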

How the data were processed

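RNA was measured in 10 libraries of CA3, 5 with Mef2c shRNA and 5 with scramble virus. Per the labels' protocols, RNA was extracted with Trizol and paired-end Illumina sequencing was done on polyadenylated RNA. HISAT2, featureCounts and mm10 are named per the submitters' processing notes; their versions, settings, strand use and annotation were not given in the sources, so overlapping and antisense genes cannot be told apart. The authors deposited 1 table of unnormalized read counts for each library, as its whole numbers show. Symbols, coordinates, transcript length and GC content came from GENCODE M21 (GRCm38), which held 18421 of 18453 identifiers.

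The test was that of edgeR 4.0.16 in R 4.3.3 (filterByExpr, TMM, robust quasi-likelihood test, no covariates); SEs are the log2 fold change over the square root of F. Adjusted p-values cover all tested genes. Log2 CPM used a prior count of 2. No library duplicated another (chi-square per degree of freedom 3.74 to 37.4 within groups). In simulated counts of 14287 genes for this comparison, 59% of the genes given a 1.5-fold change were found, and 82% of those given a 2-fold one. Another 8 genes, given no change, were called. Counts were drawn independently, with 200 genes changed, and so lack the differences between libraries that many genes share here. These shares need not hold in the real libraries. The members, lists and some alternatives were chosen with earlier results of these data known. Named are the members, Mef2c, called genes of each list (at most 4, or, with none called, the 2 with the highest level), and the 5 genes most like Cdkn1a; Daxx, Rpl11, Hipk2, Cdkn2a, Ccnb1, Aurkb, Bub1 and the called markers were named after their values were seen. The alternatives were other normalizations, filters and thresholds, DESeq2 1.42.0, limma 3.58.1 (voom), a replicate block, 1 surrogate variable (sva 3.50.0), spline offsets (5 degrees of freedom) for length and GC content, and leaving out libraries. Covariates for the microglia, interferon and endothelial scores and the choroid plexus split were added after seeing the data. Replicate numbers were not found to pair the samples.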

Additional observations from a re-analysis of the deposited data

Results flagged for a closer look

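Among 66 sets of 5 values, 5 had a library far from the other 4 by Dixon's test, where chance gives about 1 in 20. None of these concerned one of the 10 members. Mef2c was at 312 CPM in scramble 4, against 166 to 198 CPM in the other scramble libraries. Atm was at 30.6 CPM in scramble 2, against 25.7 to 26.2 CPM in the others. Cdk5 was at 83.9 CPM in scramble 3, against 73.2 to 74.0 CPM in the others. Cop1 was at 55.4 CPM in scramble 2, against 47.8 to 49.9 CPM in the others. Trp53bp1 was at 132 CPM in Mef2c shRNA 1, against 101 to 109.6 CPM in the other Mef2c shRNA libraries, and so within the scramble range.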

How the results depend on the processing

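Of 25 alternatives, Cdkn1a, Mdm4 and Atm kept their sign in all and their call in 23 each, Phlda3 kept its sign in all and its call in 13, and Trp53 in all and in 7. The members were chosen on this contrast, so these tallies describe how calls depend on processing and lend them no support. All genes called numbered 1766 and other pathway genes called 9. Leaving out 1 library gave 631 to 3305 and 3 to 22; 631 was without scramble 2 and 3305 without Mef2c shRNA 1. The counts were 3393 and 22 with limma-voom, 710 and 3 with 1 surrogate variable, 238 and 2 with length and GC offsets, 1029 and 5 without scramble 4 and Mef2c shRNA 5, 379 and 2 at an adjusted p under 0.01, 3106 and 23 at 0.1, and 0 and 0 without Mef2c shRNA 2, 3 and 4 or with the microglia covariate (2590 and 2497 genes with an unadjusted edgeR p under 0.05). DESeq2 called 15 pathway genes. The cause was not tested, except that leaving out libraries leaves fewer samples. Of the called genes, 38.0% were higher, against 46.4% with upper quartile normalization, 26.1% with 1 surrogate variable and 20.5% (without scramble 5) to 46.3% (without Mef2c shRNA 1) when 1 library was left out. Members related to Cdkn1a within groups numbered 0, and 0 to 1 when 1 library was left out (1 without Mef2c shRNA 5). Trp53bp1 turned to 0.075 with length and GC offsets.

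With the replicate number as a block 1313 genes passed, with 3 other pathway genes, and Trp53, Atr, Cdk5, Sfn, Trp53bp1, Rpl11 and Daxx no longer passed. Same-numbered libraries' deviations correlated at -0.114 to 0.403, and 1 of 5 Mef2c shRNA libraries was closest to its own number. Whether same-numbered libraries share more than a number cannot be told from these values. Depth limits Eda2r most, with 3 to 34 reads.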
